A study of Mus musculus with 12 samples.

Results

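RelA binding in wild-type bone-marrow-derived macrophages was compared between 3 and 8 h of stimulation with lipopolysaccharide (LPS), the bacterial cell-surface molecule also called endotoxin. The regions are hotspots, stretches of the genome enriched for sequence tags after chromatin immunoprecipitation with an antibody against RelA (ab7970, Abcam), each called in a single library. All hotspots of the 3 h and the 8 h library were taken, except those that overlapped a hotspot of untreated wild-type input DNA by 1 bp or more, which removed 45 of 5017 and 12 of 1890. This left 4972 hotspots at 3 h and 1878 at 8 h, or 5271 regions once overlapping hotspots of both times are joined, out of 49690 hotspots left in the 9 immunoprecipitated lists of the series by the same step. The macrophages were primary cells of C57BL/6J mice with a wild-type genotype label, grown from bone marrow. The input sample came from untreated cells with the same strain and genotype labels. Ikaros libraries of wild-type cells, and RelA libraries of cells labelled littermate control, each at 0, 3 and 8 h of LPS, served as lists that played no part in defining the regions. The littermate samples also came from C57BL/6J mice, and the wild-type RelA list at 0 h was used in the same way.

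RelA is a DNA-binding subunit of NF-kB, usually paired with p50, a product of Nfkb1. In resting macrophages the pair is held in the cytoplasm by inhibitors of the IkB family. Recognition of LPS by the receptor Tlr4 leads to loss of the inhibitor and entry of RelA into the nucleus, where it binds kB sites near genes for cytokines, chemokines and its own inhibitors. Newly made IkB proteins then export part of it again, while cytokines released by the cells can renew the signal, so early and late binding need not be the same. Ikaros, encoded by Ikzf1, is a zinc finger protein best known from lymphocyte development.

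Each group held 1 library, so no difference between times has a replicate check and no p-value is given. Intervals in brackets are exact Clopper-Pearson 95% intervals, which hold only the error of counting hotspots and treat neighbours as independent, which they are not. Sequencing depth is unknown. The 3 h list reached down to a z score of 8.88 and the 8 h list to 10.9, so they ended at unlike strengths, and a region missing at 8 h may have lain just under the limit. In wild type the RelA and Ikaros file names carry 3 h at every time, also at 0 and 8 h, and the times in the labels were used. Coordinates are on mm9 and are printed as deposited. No annotation or genome of that build was used, so regions are named by position, no gene is assigned and no sequence is shown. The cell type label could not be checked, since lists of bound regions hold no expression values.

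Between 3 and 8 h the RelA list lost most of its weaker members, kept nearly all of its strongest ones, and gained few. Of the 4972 hotspots at 3 h, 3416 were not listed at 8 h, or 68.7% of those compared, and 302 of the 1878 at 8 h were not listed at 3 h, or 16.1%. The remainder formed 1553 shared regions. In 1530 of these a single 3 h hotspot met a single 8 h hotspot, and these one-to-one regions are the base for every comparison of rank, width and position below. All of the 50 strongest 3 h hotspots by z score, 96 of the 100 strongest and 432 of the 500 strongest were listed at 8 h. Going back in time, the 100 strongest hotspots at 8 h and 490 of the 500 strongest were already listed at 3 h. The order was less well kept than the presence. Only 57 of the 100 strongest at 3 h were among the 100 strongest at 8 h, and 4 of the 10 strongest among the 10.

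Loss followed width and density as well as z score, all 3 measured at 3 h. Kept hotspots had a median z score of 20.5 (quartiles 14.2 and 29.6), a median highest density of 27.5 and a median width of 703 bp. Hotspots listed at 3 h alone had a median z score of 11.5 (quartiles 9.88 and 14.4), a highest density of 16.7 and a width of 464 bp. The share kept rose from 8.84% (7.15 to 10.8) in the lowest quintile of highest density to 75.4% (72.6 to 78.0) in the highest. By width it rose from 6.93% (5.44 to 8.69) among the narrowest hotspots, with a median of 274 bp, to 69.6% (66.7 to 72.5) among the broadest, with a median of 846 bp. The ranges of kept and lost hotspots overlapped widely. Of the 3416 lost hotspots, 1457 had a 3 h z score below the lowest listed at 8 h, and the highest reached 53.5. When both lists were held to the higher of their lowest z scores, 3381 hotspots remained at 3 h and 42.1% (40.4 to 43.7) of them were listed at 8 h. With the 3 h list shortened by z score to the length of the 8 h list, the kept share was 59.5%. The share of 8 h hotspots present at 3 h was then 60.5%, and the 2 shares must nearly equal each other when lists of 1 length overlap almost one to one.

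The 5 regions with the highest z scores at 8 h were strong at both times. They lay on chromosome 15 at 6518818 to 6519807 (z 79.4 at 3 h and 108 at 8 h), on chromosome 10 at 37057705 to 37058881 (84.8 and 99.8), on chromosome 17 at 18037481 to 18038376 (76.9 and 94.5), on chromosome 17 at 13202580 to 13203586 (111 and 93.5) and on chromosome 10 at 18734654 to 18735834 (110 and 91.4). Their 8 h places among the 1530 shared regions were 1 to 5, and their 3 h places 16, 11, 17, 1 and 3. All 5 were also among the 47 RelA hotspots of unstimulated wild-type cells, a list that 34 of all 1530 shared regions overlapped. The places of the 5 in that list were 5, 26, 22, 4 and 6. In littermates they were listed at 3 h with places 16, 2, 13, 8 and 6 of 9999, and at 8 h with places 3, 6, 1, 2 and 125 of 5231. The last of them, on chromosome 10 at 18734654, had a z score of 91.9 in the littermate list at 3 h and 29.5 at 8 h.

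Ranks of the shared regions were similar at the 2 times but far from fixed. Since z scores and densities of different libraries have no known common scale, each region was given a percentile rank among the same 1530 regions at each time, and the difference is called its move. Spearman's rho between 3 and 8 h was 0.61 for z score and 0.63 for highest density, and 0.54 for width. A move was called when z score and highest density both shifted by at least 25 percentile points in 1 direction. By that rule 155 of 1530 regions rose, 10.1% of those compared, and 162 fell, 10.6%. No region moved by that much in opposite directions by the 2 measures. With percentiles taken within each whole list instead, 36 rose and 414 fell. The smaller of the 2 moves was 25.1 points for the risen region nearest the limit and 24.98 points for the nearest one left out. For falls these values were -25.2 and -24.98. Ranks over the same regions must balance, so the near-equal numbers are a property of the measure. A region that starts at the top can only fall, and risen regions had a median place of 1264 at 3 h and 538 at 8 h, fallen ones 512.5 and 1230.5.

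**Figure D1:**
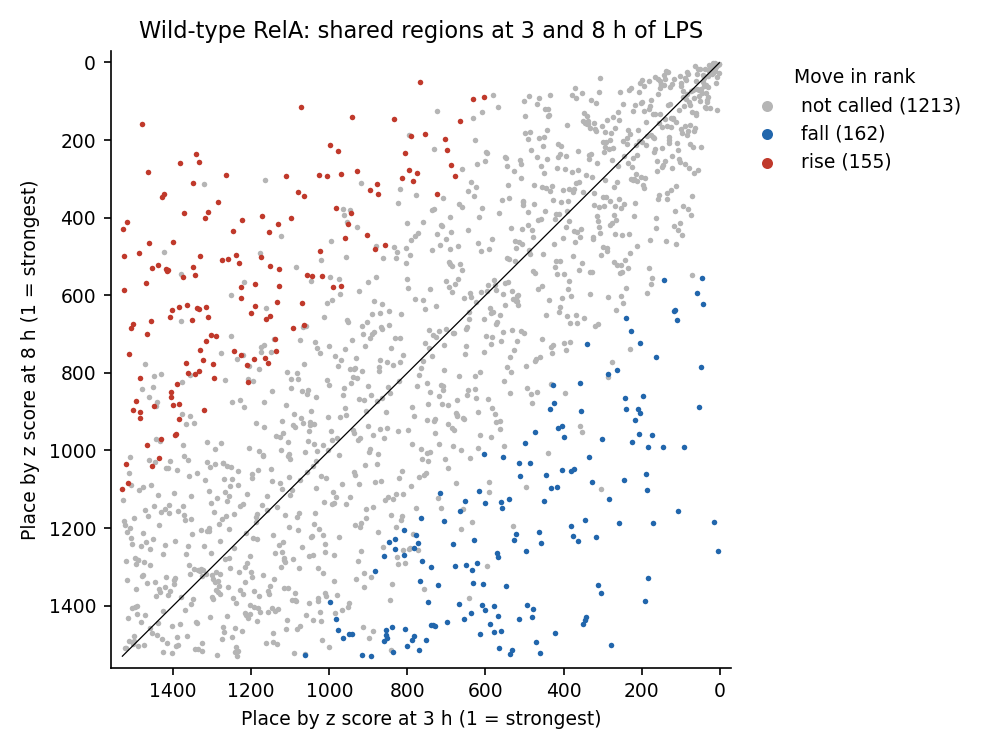
Place by z score of the 1530 one-to-one shared regions at 3 h (x axis) and 8 h (y axis), with 1 the strongest, and each point 1 region. The strongest regions crowd near the diagonal at upper right, while 155 risen regions lie above it and 162 fallen ones below, including 2 at the far right edge that dropped from among the 20 strongest to below place 1000.

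The largest rises took regions from near the bottom of the shared set into its upper part. On chromosome 13 at 5784536 to 5785427, RelA stood at place 1480 by z score at 3 h (z 9.78, highest density 17.5) and at place 158 at 8 h (z 35.5, highest density 59.0), and the listed width went from 263 to 891 bp. On chromosome 10 at 119627093 to 119627709 it went from place 1424 to 338 (z 10.6 and 26.4). On chromosome 1 at 52189787 to 52190533 it went from 1464 to 283 (z 9.97 and 28.4). The remaining rises were chromosome 2 at 118785426 to 118786050, from place 1382 to 258 (z 11.2 and 29.2), and chromosome 13 at 9158349 to 9159071, from 1341 to 237 (z 11.7 and 30.4). None of the 5 was listed for RelA before LPS in either series, where 2.22% (wild type) and 8.56% (littermates) of all 1530 were. All 5 were listed for Ikaros at 8 h, as were 84.5% of all 1530 shared regions, and only that on chromosome 10 for Ikaros at 3 h, where 63.3% of all were listed.

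In littermates 3 of these 5 risen regions were listed for RelA at both times, chromosome 13 at 9158349 at 8 h alone, and chromosome 2 at 118785426 at neither. The region on chromosome 13 at 5784536 was already strong in littermates at 3 h, with a z score of 34.5 and place 504 of 9999, and had a z score of 25.7 and place 191 of 5231 at 8 h. Its low 3 h standing was seen in wild type alone of the 2 RelA series.

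The largest falls included regions that ranked among the strongest RelA sites at 3 h. On chromosome 17 at 26671788 to 26672874, RelA stood at place 15 by z score at 3 h (z 79.5, highest density 108) and at place 1185 at 8 h (z 13.1, highest density 21.2). On chromosome 12 at 112692579 to 112694992 it fell from place 191 to 1388 (z 38.7 and 11.8), and on chromosome 14 at 70729607 to 70730462 from 278 to 1502 (z 34.4 and 11.1). The other two were chromosome 9 at 121222987 to 121223683, from 342 to 1430 (z 31.4 and 11.5), and chromosome 4 at 129189041 to 129189800, from 470 to 1493 (z 26.6 and 11.1). All 5 were listed for Ikaros at both 3 and 8 h, as were 946 of all 1530 shared regions. On chromosome 12 at 112692579 Ikaros was among the strongest of its own lists, at place 9 of 7109 at 3 h (z 98.1) and 71 of 13796 at 8 h (z 60.6), while littermate RelA was not listed there at any time.

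The fall on chromosome 17 at 26671788 was not seen in littermates, where that region had z 39.9 and place 214 of 9999 at 3 h and z 30.1 and place 115 of 5231 at 8 h. A further region among the 20 strongest at 3 h, singled out after its values were seen, fell by nearly as much. On chromosome 19 at 22022084 to 22023086 RelA went from place 4 (z 104, highest density 133) to place 1259 (z 12.6, highest density 24.1). There littermate RelA was listed at 3 h (z 14.1) and not at 8 h. Ikaros stood at place 733 of 7109 at 3 h and 12766 of 13796 at 8 h, in lists of unlike length. Of the 20 strongest shared regions at 3 h, 17 were among the 100 strongest at 8 h, these 2 fell below place 1000, and 1 lay between.

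Regions that rose and regions that fell differed in the lists that were not used to rank them. At 3 h Ikaros was listed at 56 of the 155 risen regions, 36.1% (28.6 to 44.2), and at 119 of the 162 fallen ones, 73.5% (66.0 to 80.1), against 63.3% (60.8 to 65.7) of all 1530. At 8 h the shares were 76.8% (69.3 to 83.2) and 88.3% (82.3 to 92.8), against 84.5% (82.6 to 86.3) of all. Ikaros was listed at 8 h and not at 3 h at 64 of the 155 risen regions, 28 of the 162 fallen and 347 of all 1530. The difference between risen and fallen regions in the 8 h share was -11.5 percentage points, and -2.88 with moves of 10 points. In the 3 h share it was -37.3, and -23.6 with moves of 10 points. Risen regions were the weaker at 3 h, with a median z score of 12.6 against 25.4. Among regions of like mean rank over both times, in the middle band of 3, Ikaros 3 h was listed at 40.2% (31.0 to 49.9) of 112 risen and 73.8% (64.4 to 81.9) of 107 fallen regions. In the lower band these shares were 20.0% (8.44 to 36.9) and 64.3% (48.0 to 78.4), and in the upper band 4 of 8 and 13 of 13. A band of mean rank does not match strength at 3 h, since within it risen regions start lower and fallen ones higher. Whether the difference holds at like 3 h strength was not tested.

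Littermate RelA parted the same regions by time. At 3 h it was listed at 69.0% (61.1 to 76.2) of risen and 75.9% (68.6 to 82.3) of fallen regions, whose intervals overlap, and at 1147 of all 1530. At 8 h it was listed at 58.7% (50.5 to 66.5) of risen and 32.7% (25.6 to 40.5) of fallen ones, which do not, and at 49.7% (47.2 to 52.3) of all 1530. In the middle band of mean rank the 8 h shares were 64.3% (54.7 to 73.1) and 33.6% (24.8 to 43.4). In the lower band they were 31.4% (16.9 to 49.3) and 19.0% (8.60 to 34.1), with overlapping intervals, and in the upper band 8 of 8 and 9 of 13. Risen regions were the stronger at 8 h, with a median z score of 21.1 against 12.8, and bands of mean rank do not match this. Among 8 h hotspots present at 3 h, the share in the littermate 8 h list was 15.2% in the weakest quintile of 8 h z score and 92.7% in the strongest. Whether the difference holds at like 8 h strength was not tested. Of the 162 fallen regions 72 were in the littermate list at 3 h and not at 8 h, against 27 of the 155 risen and 433 of all 1530.

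Where a region was listed once in each of the 4 RelA libraries, its littermate rank could be followed too. There were 706 such regions. Of the 79 that rose in wild type, 49 moved up in littermates, 62.0%, against 51.1% of all 706. Of the 50 that fell, 29 moved down, 58.0%, against 48.9% of all. Spearman's rho between the moves of the 2 series was 0.21 for z score and 0.20 for highest density across these regions, whose points share 4 libraries. Moves within the littermate lists tracked those in wild type only weakly. Across 911 regions listed once in both Ikaros lists, RelA and Ikaros moves had a rho of 0.20 for z score and 0.19 for highest density. Ikaros moved up at 39 of 53 risen regions, 73.6%, against 50.6% of all 911, and down at 70 of 109 fallen ones, 64.2%, against 49.4%.

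**Figure D2:**
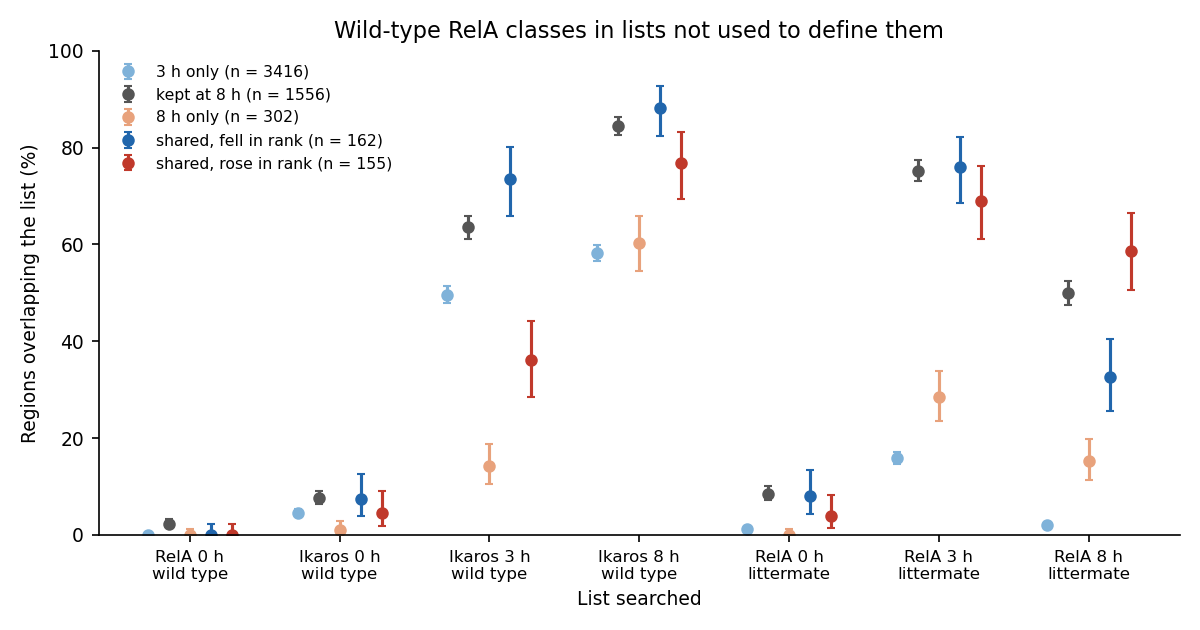
Share of wild-type RelA regions (y axis, %) that overlapped each list not used to define them (x axis), with 95% exact intervals, for 3 h-only, kept, 8 h-only, fallen and risen regions. Risen regions lie below fallen ones for Ikaros at 3 h (36.1% and 73.5%) and above them for littermate RelA at 8 h (58.7% and 32.7%), and 8 h-only regions go from 14.2% to 60.3% between Ikaros at 3 and 8 h.

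Shared regions were mostly narrower at 8 h. The median width was 700 bp at 3 h and 577.5 bp at 8 h, and the median change within a region was -121.5 bp, with quartiles of -234 and -21.0 bp. Of the 1530 regions 1212 narrowed, 79.2% of those compared, 313 widened, 20.5%, and 5 kept their width. Narrowing was least common in the weakest quintile by 3 h z score, where 144 of 306 narrowed and the median change was 13.5 bp. In the other quintiles the median change lay between -168 and -127.5 bp and from 80.4% to 94.1% of regions narrowed. Width went with the move in rank, though both come from the same hotspot calls and need not vary independently. All 162 fallen regions narrowed, with a median change of -361.5 bp, while 120 of the 155 risen regions widened, with a median change of 105 bp. The 411 regions that moved by under 10 points on both measures still had a median change of -118 bp.

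The same direction was found in the littermate lists and the opposite in the Ikaros lists. Of 1419 littermate one-to-one regions 72.7% narrowed from 3 to 8 h, with a median change of -69.0 bp, and of the 844 with a highest density of at least 10 at both times 80.1% did, with a median change of -87.0 bp. Of 5624 Ikaros regions 78.8% widened, with a median change of 127 bp. The lowest z score listed rose from 8.88 to 10.9 in the wild-type RelA lists, from 8.64 to 10.5 in the littermate lists, and went from 9.82 to 9.75 in the Ikaros lists. Its part in the width changes was not tested.

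**Figure D3:**
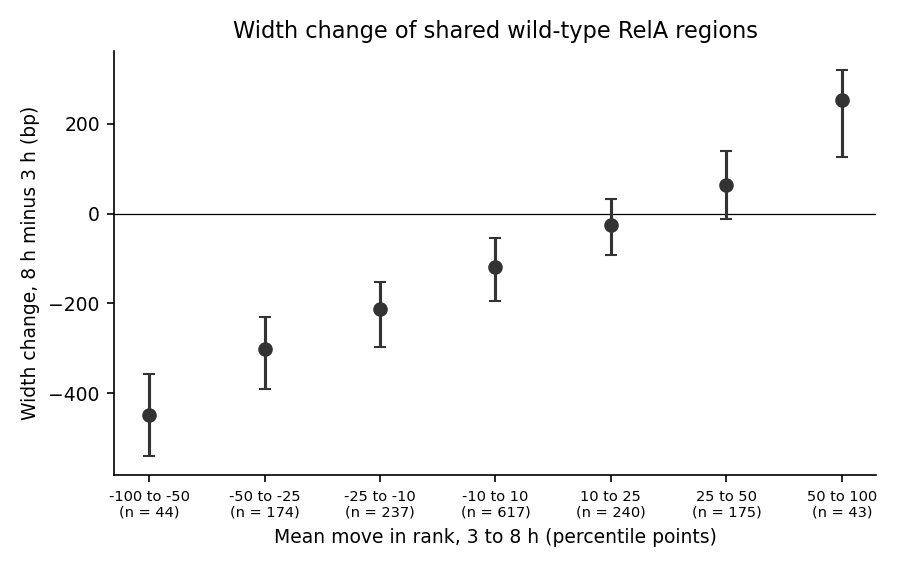
Width change of shared regions in bp (y axis) by mean move in rank over z score and highest density (x axis, percentile points). Points are medians and bars quartiles over the number of regions given under each bin. The median runs from -449 bp in the 44 regions with the largest falls to 252 bp in the 43 with the largest rises, and is -118 bp where ranks changed little.

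The 3 regions that lost most width were broad at 3 h, and narrow at 8 h. On chromosome 5 a region of 4411 bp at 92774129 to 92778540 (z 56.3) was replaced by one of 491 bp at 92777759 to 92778250 (z 15.9). On chromosome 7 a region of 3386 bp at 53965859 to 53969245 (z 33.1) was replaced by one of 288 bp (z 11.9), and on chromosome 12 one of 2596 bp at 27125626 to 27128222 (z 22.8) by one of 251 bp (z 11.2). At all 3 Ikaros ranked among the strongest of its lists at 3 h, with places 2, 41 and 29 of 7109, and at 8 h with places 10, 91 and 183 of 13796. The 3 that gained most width lay on chromosome 2 at 44811834 to 44813055, from 442 to 1221 bp, on chromosome 13 at 5784536 to 5785427, from 263 to 891 bp, and on chromosome 6 at 15633360 to 15634143, from 251 to 783 bp. All 3 were also called as rises, and none was listed for Ikaros at 3 h, where 36.1% of the 155 risen and 63.3% of all 1530 shared regions were.

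Broad RelA hotspots were set apart by a limit of 2000 bp chosen after the widths were seen. At 3 h 22 hotspots were broader than that, and all 22 overlapped Ikaros at both 3 and 8 h, against 53.8% and 66.3% of the other 4950. A longer region has more room to meet another list, and this was not corrected for. Of the 22, 15 were listed at 8 h in some part, 68.2% against 31.1% of the others, and 5 of them as several separate hotspots. Among all 3 h hotspots in the highest quintile of highest density 75.4% were kept. The 22 were also the stronger, with a median 3 h z score of 31.0 against 12.8, and the shares were not matched for strength. Their 64.4 kb at 3 h met 8 h hotspots adding up to 17.2 kb, or 26.7% of that length, against 32.6% for the others. Over all 3 h hotspots, 21 met more than 1 hotspot at 8 h, while only 3 hotspots at 8 h met more than 1 at 3 h. The most split was a region of 4994 bp on chromosome 17 at 35334857 to 35339851 (z 56.3), which at 8 h was listed as 3 pieces of 1181, 538 and 1363 bp (z 26.4, 12.9 and 31.5). It overlapped the hotspot with the highest z score in both the 3 h and the 8 h Ikaros list. A region of 1911 bp on chromosome 9 at 51981977 to 51983888 also met 3 hotspots, of 464, 814 and 316 bp.

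RelA was placed at nearly the same point at both times in the one-to-one regions. The centres of one-to-one regions lay a median of 36.0 bp apart, with quartiles of 16.5 and 66.4 bp. They were within 50 bp at 63.8% (61.3 to 66.2) of regions and within 100 bp at 88.5% (86.8 to 90.1). In 947 of 1530 the 8 h region lay wholly inside the 3 h region, and in 158 the reverse. The centre distance fell with strength, from a median of 42.0 bp in the weakest quintile at 3 h to 27.5 bp in the strongest. Only 44 pairs of centres were over 200 bp apart, and 29 of these had a 3 h region wider than 1000 bp.

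Listed regions stood further apart at 8 h, as a shorter list must. The median distance from a hotspot to its nearest neighbour in the same list was 29.4 kb at 3 h and 54.6 kb at 8 h. Seen from the shared regions it went from 18.5 to 54.6 kb, and the number with a neighbour within 10 kb fell from 614 to 389 of 1530. The share kept differed with crowding at 3 h, and so did strength. Over all strengths 39.7% (36.7 to 42.7) of hotspots with a neighbour at 2 to 10 kb were kept, against 23.3% (20.6 to 26.2) of those with none within 200 kb, and their median z scores were 14.4 and 11.5. From the weakest to the strongest quintile the shares were 12.7% and 4.69%, 16.2% and 9.05%, 24.6% and 19.8%, 41.1% and 35.8%, and 77.3% and 77.2%. Hotspots with a neighbour at 2 to 10 kb were thus kept more often in the 4 weaker quintiles, and about as often as the isolated ones in the strongest. This did not extend evenly to the most crowded ones. Those with a neighbour under 2 kb were kept in 33.7% (29.9 to 37.6), near the 33.4% at 10 to 50 kb. By quintile the shares under 2 kb were 4.76%, 12.7%, 21.0%, 41.3% and 81.1%.

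Within 10 kb, shared regions that fell had 3 h-only neighbours more often than those that rose, and 8 h-only neighbours less often. At that distance, 61 of 162 fallen regions had a hotspot listed at 3 h alone, 37.7% (30.2 to 45.6), against 23 of 155 risen ones, 14.8% (9.64 to 21.4), and 25.7% (23.5 to 28.0) of all shared regions. A hotspot listed at 8 h alone lay within 10 kb of 17 risen regions, 11.0% (6.52 to 17.0), and of 3 fallen ones, 1.85% (0.384 to 5.32), against 4.25% (3.29 to 5.38) of all. At 100 kb the shares for 8 h-only hotspots were 21.9% (15.7 to 29.3) of risen and 9.88% (5.75 to 15.5) of fallen regions, whose intervals lay just apart, and 13.9% of all. For 3 h-only hotspots at 100 kb they were 49.7% (41.6 to 57.8) of risen and 69.8% (62.1 to 76.7) of fallen regions, against 67.9% (63.1 to 72.4) of those that moved little and 64.4% of all. The fallen regions thus differed little from the little-moved ones at that distance. Moves of shared regions next to each other under 10 kb apart had the same sign in 111 of 187 pairs, 59.4%, with a Spearman's rho of 0.29 across pairs. At 10 to 50 kb the sign was shared in 51.4% of 210 pairs, with a rho of 0.03. These values come from the lists that made the moves and the classes, and are a description of them.

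**Figure D4:**
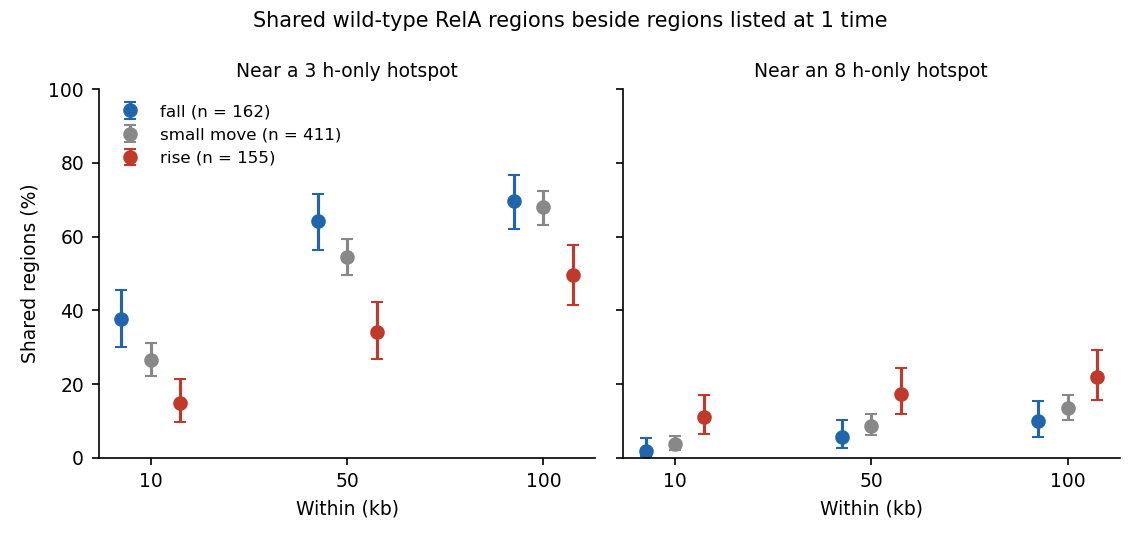
Share of shared regions (y axis, %) with a 3 h-only hotspot (left) or an 8 h-only hotspot (right) within 10, 50 or 100 kb (x axis), for fallen, little moved and risen regions, with 95% exact intervals. Within 10 kb 37.7% of fallen and 14.8% of risen regions had a 3 h-only neighbour, and 1.85% and 11.0% an 8 h-only neighbour.

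Hotspots kept in the wild-type list at 8 h were also kept in the littermate list more often than those lost in wild type. The littermate 3 h list held 1171 of the 1556 kept wild-type hotspots, 75.3% (73.0 to 77.4), and 541 of the 3416 lost ones, 15.8% (14.6 to 17.1). Of those 1171, 732 were in the littermate list at 8 h, 62.5% (59.7 to 65.3), and of the 541 only 59, 10.9% (8.41 to 13.8). Over the whole littermate list 85.6% of 3 h hotspots were not listed at 8 h, so the lost ones lay near that list and the kept ones apart from it. The whole list had a median highest density of 4.11, against 18.6 where it met wild-type 3 h hotspots. Strength in wild type was not matched, with median 3 h z scores of 20.5 for all kept and 11.5 for all lost hotspots. The gap was present at like littermate strength. In the second quintile of littermate highest density at 3 h, with a median of 15.2, the shares were 40.7% (33.5 to 48.2) of 182 and 6.25% (3.04 to 11.2) of 160. In the fourth, with a median of 24.4, they were 70.9% (65.3 to 76.1) of 289 and 18.9% (9.44 to 32.0) of 53. In the highest quintile, with only 13 lost hotspots, they were 93.6% (90.4 to 96.0) and 53.8% (25.1 to 80.8).

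**Figure D5:**
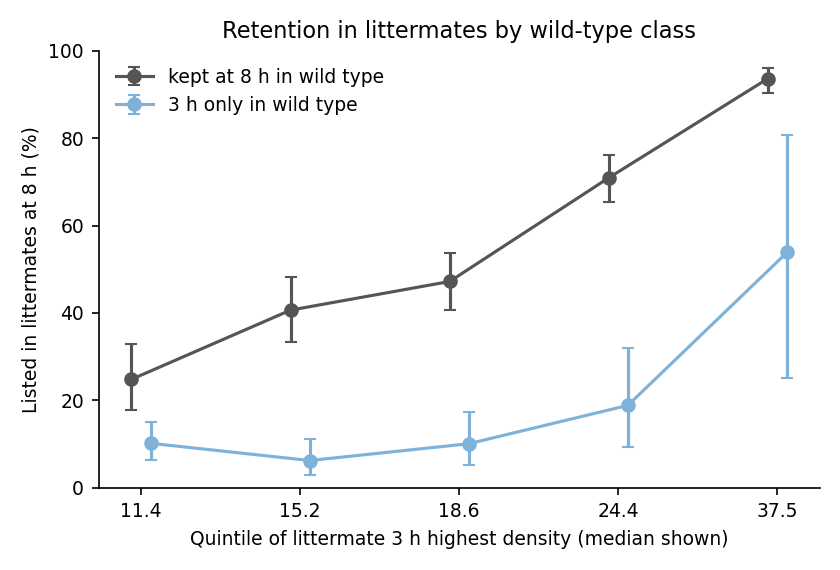
Share of wild-type RelA 3 h hotspots found in the littermate 8 h list (y axis, %) among those in the littermate 3 h list, by quintile of littermate 3 h highest density (x axis, median of the quintile), with 95% exact intervals. Hotspots kept in wild type lie above those lost in wild type in each of the 5 quintiles, from 24.8% and 10.2% in the lowest to 93.6% and 53.8% in the highest.

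The strongest hotspots that left the list stood at place 105 or higher at 3 h. They lay on chromosome 12 at 120345864 to 120346821 (z 53.5, place 68 of 4972), on chromosome 12 at 8393101 to 8394178 (z 52.5, place 75), on chromosome 13 at 42469351 to 42470251 (z 50.6, place 87), on chromosome 1 at 80599448 to 80600287 (z 50.4, place 89) and on chromosome 3 at 148882750 to 148883835 (z 47.9, place 105). All 5 carried Ikaros at 3 h, as did 49.6% of all 3416 hotspots listed at 3 h alone. At 8 h 4 did, against 58.2% of all 3416, the exception being chromosome 12 at 120345864. In littermates RelA was listed at 3 h on chromosome 12 at 120345864 (z 38.9) and chromosome 3 at 148882750 (z 18.4), and at none of the 5 at 8 h. Of all 3416, the littermate lists held 15.8% at 3 h and only 2.14% at 8 h. The region on chromosome 13 lay 1256 bp from the nearest 8 h hotspot and that on chromosome 1 5851 bp, while on chromosome 12 at 8393101 the nearest was 414419 bp away.

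The 302 hotspots listed at 8 h alone were weak within their list, and most lay far from any earlier hotspot. Their median z score was 13.1 against 17.4 for 8 h hotspots already present at 3 h, and their median width 440.5 against 576 bp. Among the weakest quintile of 8 h hotspots 68.1% (63.1 to 72.8) had been listed at 3 h, and among the strongest 98.7% (96.9 to 99.6), where only 5 of 376 were late. The nearest 3 h hotspot lay a median of 40.7 kb away, within 1000 bp for 15 and within 10000 bp for 78. None of the 302 fell on a 3 h hotspot that had been removed for overlap with input.

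Ikaros separated late hotspots from the others chiefly by its 3 h list. Of the 302, 43 overlapped Ikaros at 3 h, 14.2% (10.5 to 18.7), and 182 at 8 h, 60.3% (54.5 to 65.8). When overlap had to be reciprocal over 50%, both in defining late hotspots and in searching Ikaros, the set of late hotspots was larger and 35.8% of it overlapped Ikaros at 8 h. Of the 1576 present at both times, by overlap of 1 bp, 63.4% (61.0 to 65.8) and 84.3% (82.4 to 86.1) did. Thus 141 late RelA hotspots lay where Ikaros was also listed at 8 h and not at 3 h, against 354 of the 1576. In the weakest quintile of 8 h z score the shares with Ikaros at 3 h were 17.5% (11.2 to 25.5) of 120 late and 53.5% (47.2 to 59.7) of 256 other hotspots, and in the middle quintile 7.14% (1.98 to 17.3) of 56 and 58.8% (53.1 to 64.2) of 320. None of the 302 was a RelA hotspot before LPS in wild type or littermates, which allows shares of up to 1.21% by the exact interval. The shares were low for the 1576 as well, 2.28% (1.60 to 3.15) in wild type and 8.44% (7.11 to 9.92) in littermates. The wild-type list before LPS held only 47 hotspots.

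Late hotspots found in the littermate 8 h list were less often in the littermate 3 h list than other 8 h hotspots were, though most were in both. The littermate 3 h list held 86 of the 302, 28.5% (23.5 to 33.9), more than the 46 in the littermate 8 h list, 15.2% (11.4 to 19.8). Of these 46, 15 were in the 8 h list alone and 31 in both. The 1576 wild-type 8 h hotspots present at 3 h had the same order, with 74.8% and 49.5%. Of their 780 in the littermate 8 h list, 49 were in it alone and 731 in both. These counts were not matched for strength, and the late hotspots were the weaker. With late hotspots redefined from the upper 50% of each list, 33.1% of them were in the littermate 8 h list. The littermate list is 9999 hotspots long at 3 h and 5231 at 8 h, with median highest densities of 4.11 and 4.56 against 18.5 and 25.5 in wild type. The strongest late hotspots lay on chromosome 3 at 60275768 to 60276480 (z 37.3, place 146 of 1878), chromosome 17 at 10932866 to 10933565 (z 28.4, place 293), chromosome 16 at 30678829 to 30679531 (z 27.2, place 326), chromosome 10 at 96904981 to 96905702 (z 26.6, place 347) and chromosome 13 at 75358971 to 75359862 (z 25.7, place 370). All 5 carried Ikaros at 8 h and none at 3 h. Of the 371 other hotspots in the strongest quintile of 8 h z score, which held these 5, 95.7% carried Ikaros at 8 h and 76.5% at 3 h. The littermate lists held 97.6% of those 371 at 3 h and 92.7% at 8 h. The first 4 of the 5 late hotspots were in the littermate list at both 3 and 8 h, with z scores of 14.8 and 24.0, 11.5 and 23.4, 10.4 and 17.0, and 28.1 and 36.8. Their places in those lists went from 4840 to 246, 6963 to 263, 7915 to 841 and 1166 to 60, though ranks from lists of unlike length show no change on their own. The region on chromosome 13 was in neither littermate list.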

How the data were processed

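Per the labels' protocols, single-end reads were taken from RelA and Ikaros chromatin immunoprecipitations. The deposited files used here are the authors' hotspot lists of 10 libraries, 1 list each. The submitters' processing notes name the build mm9 and the tool CASAVA. How reads were aligned, how hotspots were called, at which threshold and whether against input is not given in the sources used here. Per the file headers each hotspot has a highest and a mean tag density, a signal of unstated scale, a z score and its p-value. The z scores and densities are the authors' and served only to order hotspots inside 1 list and to describe them. The deposited p-value was not used.

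Hotspots were compared with pandas 2.3.3, numpy 2.4.6 and scipy 1.17.1 under Python 3.11.15. Figures were drawn with matplotlib 3.10.9. Overlap meant 1 bp or more. Percentile ranks were computed among one-to-one shared regions. Risen and fallen regions were searched in other lists by the span of both times joined. Depth is unknown, which limits every statement on absence. On simulated lists of 2000 regions all 800 planted overlaps were found, and bedtools 2.31.1 gave the same total of 801 overlaps. The 100 planted rises were extreme by design, and all were called by z score alone. The rule over z score and highest density together was not checked in this way.

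Named regions were the 5 strongest at 8 h, the 5 largest rises and falls, the 5 strongest listed at 1 time, the 3 with most width gained and lost, and the 2 3 h regions that met most hotspots of the other time. The regions, comparisons and limits were chosen with earlier results of these data known. The planned motif and gene counts were not run, since no genome of this build was used. Input of littermate control and KO cells was not analysed here.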

Additional observations from a re-analysis of the deposited data

Results flagged for a closer look

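Changes between 3 and 8 h in the RelA and Ikaros lists of wild-type cells ran in opposite directions for 2 measures, and neither difference was tested, since each has 1 library per time. Shared RelA regions had a median width change of -121.5 bp and shared Ikaros regions one of 127 bp. The RelA list went from 4972 to 1878 hotspots, while the Ikaros list grew by 6687, from 7109 to 13796. The littermate RelA lists moved in the direction of wild-type RelA on both measures.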

How the results depend on the processing

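No paired analysis was possible because every group has 1 library and the values come from no test. Of 63 other settings tried over 13 results, 29 stayed within counting error or, for numbers of regions, within 1.5 times. The cause of the other 34 shifts was not tested. Only the width change could turn its sign, and it did not. Requiring a reciprocal overlap of 50% gave a kept share of 27.8% and a share of 8 h hotspots present at 3 h of 73.7%, and centres within 100 bp gave 27.4% and 72.5%. With both lists at or above the higher lowest z score they were 42.1% and 76.8%, with lists of equal length by z score 59.5% and 60.5%, by highest density 58.6% and 59.7%, and with the upper 50% of each list 32.7% and 87.1%. Moves of 10 points gave 358 rises and 360 falls, moves of 40 points 59 and 66, and percentiles within each whole list 36 and 414. By z score alone 233 rose. The median width change was -109 bp with reciprocal overlap and -147 bp in the upper 50% by 3 h z score, where the centre distance was 30.5 bp. With reciprocal overlap Ikaros at 8 h held 74.6% of kept, 42.5% of 3 h-only and 35.8% of 8 h-only hotspots, and littermate RelA at 8 h 44.9% of kept ones. With the upper 50% of each list Ikaros at 8 h held 74.0%, 51.6% and 43.8%, and littermate RelA at 8 h 60.7%, 5.20% and 33.1%. Within 500 bp of a 3 h hotspot lay 1.99% of 8 h-only hotspots, and within 2000 bp 10.3%. In 22 further settings, chosen after seeing the data, the difference between risen and fallen regions kept its sign in each list but not its size. With moves of 10 points it was -23.6 percentage points for Ikaros at 3 h, -2.88 for Ikaros at 8 h, -1.54 for littermate RelA at 3 h and 21.4 at 8 h, and with moves of 40 points -49.0, -5.19, -11.7 and 26.6, against -37.3, -11.5, -6.89 and 26.0. Unknown depth limits every absence, and 1 library per time leaves variation between libraries unmeasured.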
